A study of Mus musculus with 4 samples.

Results

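Ski, a repressor of TGF-β signalling, carried 25 of the 900 places in the transcriptome of mouse Th17 cells where the RNA helicase DDX5 was found reproducibly bound (2.78%). Its members here are the peaks of the deposited list whose gene name includes Ski (ENSMUSG00000029050.15), and Ski was picked because no other protein-coding gene had as many, Satb1 coming next with 20. The peak count, and the heights that come from the same comparison of immunoprecipitate with input, are therefore given as description and without a test. The libraries were made by eCLIP, in which RNA is crosslinked to protein with ultraviolet light, trimmed with RNase and recovered with an antibody to the protein. They comprised 2 DDX5 immunoprecipitates (IP) and 2 inputs that had not been immunoprecipitated. All 4 libraries came from wild type C57BL/6 Th17 cells, derived from naïve CD4 T cells of female mice and cultured for 72 h with TGFb, IL6 and the antibodies anti-CD3 and anti-CD28. The growth protocol gives the age of the mice as 8 weeks, and the design text names 2 mice aged 8 to 10 weeks. There was no untreated, DDX5-deficient or TGF-β-free group, so every Ski value below is an enrichment of DDX5 IP over input in cells that had received TGF-β.

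Ski protein binds the Smad proteins that carry the TGF-β signal into the nucleus, and it brings corepressors and histone deacetylases to their target genes. TGF-β itself causes Ski protein to be degraded, and in T cells Ski acts with Smad4 to hold back the Th17 programme until that happens. DDX5 is a DEAD-box helicase that unwinds RNA and takes part in splicing, microRNA processing and transcription, and in Th17 cells it is known as a partner of the lineage factor RORγt. These points are background and were not measured here.

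Each peak has 1 log2 fold enrichment and 1 −log10 p, both the authors' own and both covering the 2 replicates together. No value of a single replicate was available, so errors below are spreads over peaks or counting-error intervals, and neither measures variation between replicates. No read count or library total was used, so depth is unknown. The file lists peaks only and has no expression level, which leaves the Th17 label without a direct check by markers. Of 12 Th17 lineage genes looked up by name, Rora (5 peaks) and Ahr (1 peak) were in the list, and of 13 genes of other cell types 0 were. Over all protein-coding genes 1.81% had a peak, so 0 of 13 is near that background and says nothing about other cells. A gene without a peak may still be expressed, and a gene with one need not define the cell type.

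On mm10, Ski lies on the minus strand of chromosome 4, from 155154075 to 155222592, a length of 68.5 kb. The authors' annotation of its peaks names 3 transcripts, of which 2 are coding. The longest coding transcript opens with an exon of 1041 nt (155221552 to 155222592) that holds a 5′ UTR of 72 nt and the start codon. An intron of 60595 nt follows (155160957 to 155221551) and takes 88.4% of the gene. The remaining 6.88 kb at the 3′ end hold all later exons, whose borders were not analysed here. The second coding transcript splits the opening exon with a short intron of 156 nt, so that the long intron is its second. A noncoding transcript of 34.2 kb begins inside the long intron and shares the 3′ end of the gene. No other gene of the RefSeq table overlaps the Ski interval, and every peak within it was assigned to Ski.

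The peaks began at the very start of the RNA, ran densely through the 5′ part of the long intron and ended well before its 3′ splice site. The opening exon held 3 peaks and the long intron 22 (88.0%, exact Clopper-Pearson 95% interval 68.8 to 97.5, which covers counting error only). The 3′ end of the gene beyond the intron held 0 peaks. The share of peaks in the intron was thus close to the share of the gene's length that the intron takes, while the opening exon held 12.0% of peaks on 1.52% of the length. In the authors' classes, 21 peaks lay deep in the intron, 1 near a splice site and 3 in coding sequence. Peaks of 1 gene are not independent, and peaks can occur only where RNA is present, which was not measured along the gene.

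**Figure D1:**
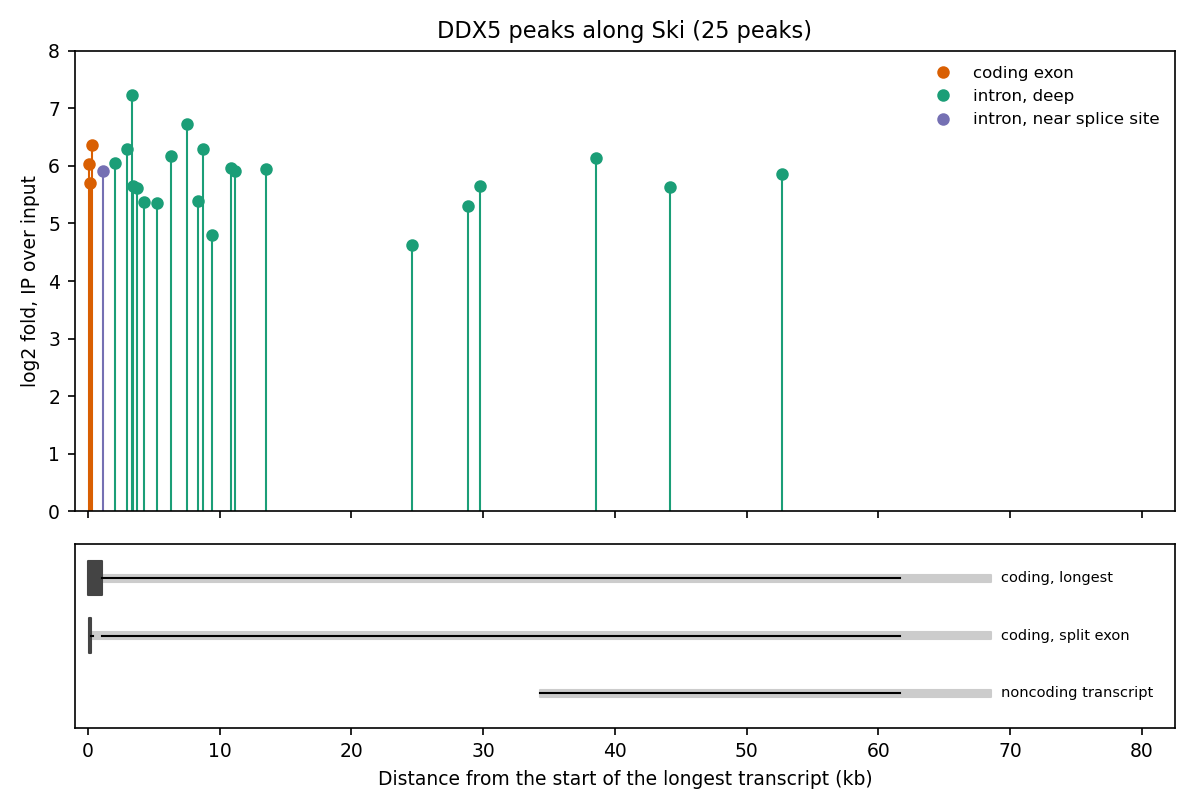
Top, log2 fold of DDX5 IP over input for each of the 25 Ski peaks (y axis) against the distance of its midpoint from the start of the longest transcript in kb (x axis), coloured by the authors' region class. Bottom, the 3 annotated transcripts to scale, with the first coding exons as boxes, introns as thin lines and parts whose exons were not analysed in grey. The peaks crowd within the first 14 kb, where 19 of the 25 lie, and none lies beyond 52.7 kb.

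The opening exon carried the peak with by far the strongest p of the gene. Peak 1, at 155222472 to 155222584, was 113 nt wide, the widest of the 25, and it spanned the start codon. It began 8 nt from the annotated start of the longest transcript and covered 64 nt of the 5′ UTR and 49 nt of coding sequence. The RefSeq model of Ski starts later, at 155222535, so 49 nt of the peak lie upstream of that start. To show the element the peak is centred near, the 30 bases from the RefSeq start onward are printed from the RefSeq promoter table (GRCm38.p6, chr4:155222506-155222535, minus strand), with the start codon in capitals.
Ski start codon: gagcccgatcgcaccATGgaagctgcagcg
Peak 1 had a log2 fold of 6.03 (65.4-fold) and a −log10 p of 84.8, whereas the other 24 ranged from 7.04 to 24.7 in −log10 p. Among the 900 peaks it came at rank 83 by −log10 p and at rank 149 by log2 fold. The strongest p and the largest fold of Ski therefore belonged to different peaks.

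Just downstream in the same exon lay 2 further peaks. Peak 2 (155222405 to 155222440) was 36 nt wide, stood 31 nt from peak 1 and had a log2 fold of 5.71. Peak 3 (155222261 to 155222331) had 6.36 (82.1-fold), next in the gene after peaks 7 and 13. Peak 3 lies wholly inside the short intron of the second coding transcript, so it is exonic in one coding transcript and intronic in the other, and the file gives no means to tell which RNA was bound. The median of the 3 exon peaks was 6.03 on the log2 scale, against 5.03 for the 90 coding-sequence peaks of other genes. That median is the value of peak 1, of whose 113 nt 64 lie in the 5′ UTR, so the 2 sets are not fully alike.

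The start of Ski is very rich in G and C. Of peak 1, 99 bases fall in the RefSeq promoter window, which runs from 250 bases before the RefSeq start to 50 after it. These bases were 81.8% G or C, with 49.5% G and 32.3% C on the RNA strand. The whole window of 300 bases was 85.3% G or C, against a median of 52.7% over 32851 windows of 27025 genes, and 0.0944% of windows reached the Ski value. A run pattern was then searched, namely 4 runs of GGG or longer with 1 to 7 bases of any kind between neighbouring runs, the letter pattern often used to mark possible G-quadruplexes. The 99 bases held 6 runs of GGG and a match on the RNA strand, and the opposite strand of the window held none. On the RNA strand, 10.5% of all windows held a match, and on either strand 18.6%. Of the 42 windows that overlap a peak on the same strand, 52.4% held a match on the RNA strand, and their median GC content was 74.3%. A match anywhere in a window counted, and most of each window lies upstream of the RefSeq start. Such a match therefore need not lie in the peak or in the RNA. Whether the pattern counts for anything beyond GC content was not tested, and a match of letters is not a folded structure. The 50 peaks that overlap a window include peak 1 of Ski at rank 9 by log2 fold and rank 1 by −log10 p, and the median log2 fold of the others was 5.25.

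Past the opening exon, the peaks of the long intron formed a chain of sites, each a single peak except for the close pair of peaks 7 and 8. Peak 4 (155221430 to 155221511) lay 40 nt from the 5′ splice site and was the only one classed as near a splice site, with a log2 fold of 5.91. The next, peak 5, stood 984 nt from that splice site and had 6.06. After it came peak 6 with 6.29 and peak 7 (155219203 to 155219274), which at 7.24 (151-fold) was the highest of the gene and at rank 23 of the 900. Peak 8 followed only 8 nt further along with 5.65, the closest pair in the gene, so the highest peak had a much lower direct neighbour.

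Between 3 and 10 kb from the start, the height of peaks varied widely. Peaks 9, 10 and 11 were below the gene's median of 5.91, with log2 folds of 5.61, 5.37 and 5.35. Peak 12 stood at 6.16 and peak 13 (155215007 to 155215072) at 6.72 (106-fold), the second highest of the gene. Peak 14 had 5.39, peak 15 had 6.30 with a −log10 p of 23.4, and peak 16 (155213131 to 155213222) had 4.80 (27.9-fold), the second lowest. The height thus changed by more than 1 log2 unit between peaks 13 and 14 and between peaks 15 and 16, which lie 720 and 611 nt apart. No error of a single peak was available, so whether these steps exceed measurement error was not tested.

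The dense stretch closed with peaks 17, 18 and 19, which were nearly equal at 5.96, 5.91 and 5.95. Peak 19 ended the stretch at 13.5 kb from the start, and the widest gap between peaks, 11.0 kb, followed it. Beyond the gap lay 6 scattered peaks. Peak 20 (155197946 to 155198003) was the lowest of the gene at 4.63 (24.7-fold). Peaks 21 and 22 had 5.31 and 5.66, and they were the only neighbours beyond the gap less than 4 kb apart, with 814 nt between them. The last 3, peaks 23, 24 and 25, had 6.14, 5.63 and 5.86. Peak 25 (155169832 to 155169914) was the farthest from the start, at 52.7 kb, and it still lay 8.88 kb short of the 3′ splice site. These last 3 also fall inside the noncoding transcript that starts within the intron, so they cannot be given to the coding RNA alone.

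The 5 highest of the 25 were therefore peaks 7, 13, 3, 15 and 6, and the 5 lowest were peaks 20, 16, 21, 11 and 10. All 5 of the highest lay in the first 9 kb of the gene, 1 of them in the exon. Of the lowest, 2 lay beyond the wide gap. The 19 peaks within 14 kb of the start, a limit drawn after the positions were seen, had a median log2 fold of 5.95 (SD over peaks 0.54, range 4.80 to 7.24), and the 6 beyond had 5.65 (SD over peaks 0.52, range 4.63 to 6.14). The 2 ranges overlapped for most of their width. Across the 25 peaks, log2 fold and distance from the start had a Pearson r of −0.22 and a Spearman rho of −0.32. This describes peaks that share the same libraries, and it is too weak to speak of a trend in height along the gene. Without the 2 peaks farthest from the median position r was −0.28.

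What changed along the intron was the number of peaks far more than their height. In 10 equal parts of 6.06 kb, the first held 9 of the 22 intron peaks and the second 6, together 68.2%. The other 8 parts held 7 peaks, and 2 of those, parts 6 and 10, held 0. That is 1.24 peaks per kb in the first 2 parts and 0.144 per kb in the rest. Within 14 kb of the start the median gap between neighbouring peaks was 666 nt and the widest 2283 nt, whereas the median of the 6 gaps beyond it, the 11.0 kb one included, was 6996 nt. How much RNA of each part of the intron was in the input was not available, so density cannot be set against RNA abundance.

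**Figure D2:**
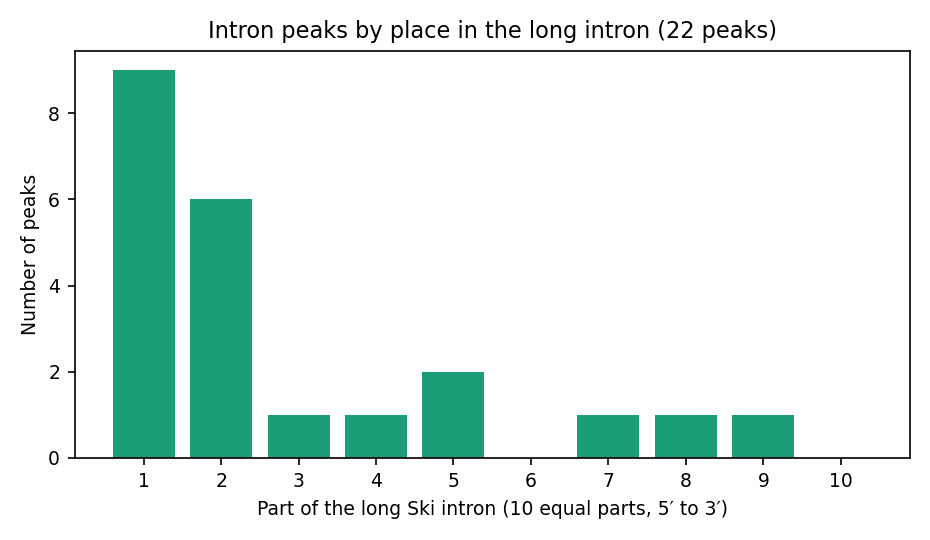
Number of DDX5 peaks (y axis) in each of 10 equal parts of the long Ski intron, ordered from the 5′ to the 3′ splice site (x axis); each part is 6.06 kb and peaks are placed by their midpoint. The bars fall from 9 and 6 in the first 2 parts to at most 2 in any later one, with 0 in parts 6 and 10.

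Most Ski peaks were separate from each other, and Ski had the most sites of any gene in the list. Since Ski was chosen for its peak count, its place by sites among protein-coding genes is description only. When peaks with 50 nt or less between them were joined, its 25 peaks made 23 sites, of which 21 were single peaks. Satb1 came next among all 459 genes named in the list, with 13 sites from 20 peaks, then the paraspeckle RNA Neat1 with 11 from 13 and Bcl11b with 9 from 9, so that all Bcl11b peaks were separate. The noncoding Gm26917, which had more peaks than Ski, joined from 32 peaks into 8 sites. Joining peaks up to 500 nt apart left Ski with 17 sites. All Ski peaks were narrow, from 36 to 113 nt with a median of 66 nt (65 nt for the other 875 peaks), and together they covered 1709 nt, 2.49% of the gene.

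By enrichment, Ski peaks sat in the upper part of the list but not at its top. Their median log2 fold was 5.91 (60.1-fold), with quartiles of 5.61 and 6.14 and a range of 4.63 to 7.24. For the other 875 peaks the median was 5.30 (39.3-fold), with quartiles of 4.63 and 5.81. Above that median lay 23 of the 25 Ski peaks. Their −log10 p values were ordinary by comparison, with a median of 10.5 against 12.4, and 0 of them reached the ceiling of 400 found in the list. Within Ski, log2 fold and −log10 p had a Spearman rho of 0.57 and a Pearson r of 0.26 over 25 peaks, as a description. Of the 25 log2 folds, 12 equal that of a peak in another gene to 6 decimals, and peaks 4 and 18 of Ski share 1 value. Among the other 875 peaks, 351 (40.1%) share their value with another of them. That count includes matches between peaks of the same gene, which the 12 for Ski leaves out, so the shares are not alike.

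**Figure D3:**
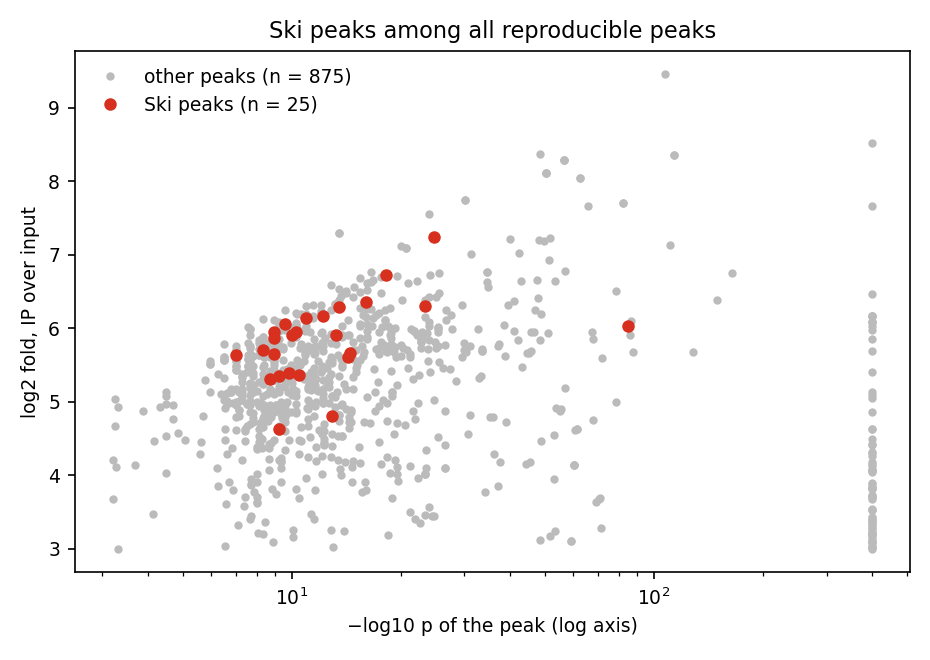
Log2 fold of IP over input (y axis) against −log10 p on a log axis (x axis) for each of the 900 peaks, with the 25 Ski peaks in red and the other 875 in grey. Most Ski peaks lie above a log2 fold of 5.30, the median of the others, and 1 stands apart to the right, the start codon peak at a −log10 p of 84.8.

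Ski supplied 21 of the 271 peaks that the authors class as deep in introns of coding genes (7.75%). The share of deep intron peaks was 84.0% for Ski (exact 95% interval 63.9 to 95.5) and 28.6% for all other peaks (25.6 to 31.7), with no test since Ski was chosen on this list. Both intervals cover counting error only and treat peaks as independent, which peaks of 1 gene are not, so they do not serve as a comparison. Compared with the 250 deep intron peaks of 136 other genes, the Ski ones were only slightly higher, at a median log2 fold of 5.86 (quartiles 5.39 and 6.14) against 5.59 (4.95 and 5.99). Of the 21, 15 were above the median of the 250. The difference in medians was 0.61 against the whole list and 0.28 within the class.

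Deep peaks of Ski lay in a longer intron, and nearer its 5′ end in relative terms, than those elsewhere. Each deep peak was placed in the longest coding-transcript intron that holds it. The median intron length was 60.6 kb for Ski, which has a single such intron, and 30.5 kb for the others, of which 61 peaks in 31 gene names lay in an intron longer than that of Ski. The median position was 12.7% of the way along the intron for Ski and 32.3% for the others. Closer to the 5′ than to the 3′ splice site were 18 of 21 Ski peaks (85.7%) and 176 of 250 others (70.4%). In bases the order is the reverse, with a median of 7.63 kb from the 5′ splice site for Ski and 4.43 kb for the others. The relative and the absolute measure therefore rank Ski differently.

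Among 12 other protein-coding genes with at least 7 peaks, the 3 whose peaks fell into region classes most like those of Ski were Hdac7, Il2ra and Bcl11b. Likeness was the sum of absolute differences in class shares, where 0 is identical, and it was 0.32, 0.32 and 0.364. Hdac7, which encodes a histone deacetylase, had 8 of 10 peaks deep in introns. Il2ra, for the α chain of the interleukin-2 receptor, had 7 of 7, and Bcl11b, for a T cell transcription factor, had 7 of 9. None of the 3 had a peak in a coding exon. Their heights differed, with median log2 folds of 5.69, 4.19 and 5.73 beside 5.91 for Ski. All 7 values of Il2ra lay between 3.47 and 5.52, so they overlap only the lower part of the Ski range.

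The layouts of these genes also differed from that of Ski. Bcl11b spread its 9 peaks over 63.3 kb, more than the 52.7 kb of Ski, but they lay farther from the start, at a median distance of 38.5 kb against 7.55 kb. Hdac7 had its first peak at 13.3 kb, and Il2ra had its last at 17.9 kb. Per 10 kb of transcript, Ski had 3.65 peaks, Hdac7 1.93, Il2ra 1.39 and Bcl11b 0.966. Of the 13 genes Ski was second by this density, behind the short gene Furin with 6.16, and at rank 3 by the distance its peaks span. Satb1, next in peak number, had 14 of its 20 peaks in the 5′ UTR class. Peaks near the start with others farther along were not particular to Ski among the 13 genes. Sema4d had a median peak distance of 0.829 kb and its last peak at 43.0 kb. For Pmepa1 these were 0.745 kb and 21.4 kb.

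**Figure D4:**
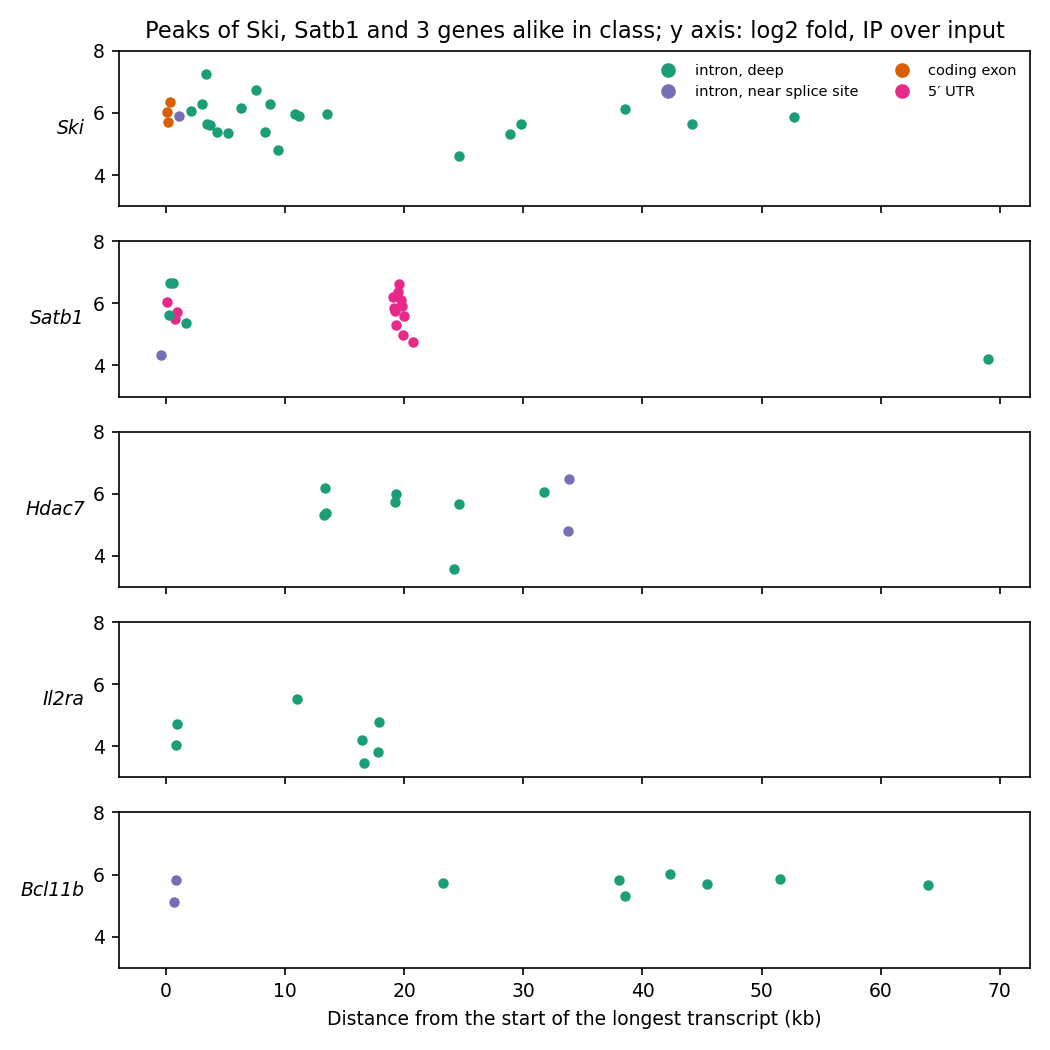
Log2 fold of IP over input (y axis of each panel) against distance of the peak midpoint from the start of the longest coding transcript in kb (x axis) for Ski, for Satb1 and for the 3 genes most like Ski in region classes; points are single peaks coloured by the authors' class, and a negative distance is a peak upstream of that transcript's start. Ski combines a dense stretch near its start with scattered peaks farther along. Satb1 also has peaks near its start and its last at 69.0 kb, besides a cluster of 5′ UTR peaks near 20 kb. The median Bcl11b peak lies 38.5 kb from the start.

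Other genes of the TGF-β pathway were then looked up in a list of 73, from ligands to target genes. A peak was found in 8 of them (11.0%), beside 1.81% of the 21900 protein-coding genes of the RefSeq table. The list includes Ski itself and was drawn up with results of these data known, and the background is all genes rather than expressed ones, so the 2 shares are given without a test. The 8 genes held 59 peaks, of which Ski had 42.4%.

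By role, the ligand group with the factors that release ligands had 1 of 12, namely Furin, a protease that cleaves the TGF-β precursor, with 10 peaks and a highest log2 fold of 6.77. Of 11 receptor genes, 0 had a peak. With 1.81% of all protein-coding genes having a peak, 0 of 11 is near that background. Groups this small give no pattern by role. Of 8 Smads, only the inhibitory Smad7 had one, a coding exon peak at 5.62. Of 12 genes for turnover and phosphorylation of pathway proteins, only Pmepa1 had peaks, 12 of them in 8 sites with a highest value of 7.55. Pmepa1 is a TGF-β-induced membrane protein that limits Smad activation, and its highest peak was above the 7.24 of Ski.

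In the group of Ski family members and nuclear partners, 3 of 19 had a peak. Skil, the close relative of Ski also called SnoN, had 1 peak at 4.87 near a splice site and 0.235 kb from its start. Zeb1, a repressor that binds Smads, had 8 peaks in 4 sites at 5.74 to 6.71, all within 1.43 kb of its start. Sin3a, Hdac1, Hdac2 and Hdac3, which encode a corepressor and deacetylases that Ski protein recruits, had none. For so few genes, none is near the 1.81% background. Of 11 target genes, Cdkn1a, a cell cycle inhibitor, had 1 deep intron peak at 5.43, and Myc, for a transcription factor of cell growth that TGF-β represses in many cells, had 1 in the 5′ UTR class at 4.74. Of the 8 genes, Ski had the most peaks, which was fixed by how it was chosen. It also had the peak farthest from its start. The next farthest was a Pmepa1 peak at 21.4 kb. A gene without a peak in this list may still be bound by DDX5, since the list holds only peaks past a log2 fold of 3 and a −log10 p of 3 in both replicates joined.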

How the data were processed

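DDX5 eCLIP and input libraries of cultured mouse Th17 cells (2 each) took their groups from the sample titles. No label ties a replicate to a mouse. Reads were handled with STAR 2.4.0i, cutadapt 1.9.1 and SAMtools 1.4.1 on mm10, per the submitters' processing notes. Per the deposited settings, each IP was normalised to its own input, replicates were joined by irreproducible discovery rate, and peaks were filtered at a log2 fold of 3 and a −log10 p of 3. Both the log2 fold and the −log10 p of each peak are the authors' values, per the file headers, with no column for a single replicate. Neither the peak caller nor the annotation release is given in the sources used here.

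Deposited starts count from 0, and printed ones from 1. Transcripts, exons and introns come from the authors' annotation column, RefSeq names and the promoter window from GRCm38.p6, whose Ski 3′ end has the same coordinate. Distances run from peak midpoints to the start of the longest coding transcript. Peaks 50 nt or less apart formed a site. Peaks were numbered 1 to 25 from the 5′ end. All were described, with the 5 highest and 5 lowest and those outside the deep class named in full. No intron sequence was analysed here. Interval functions were tested on simulated data (Python 3.11.15, pandas 2.3.3, scipy 1.17.1). The gene, the lists and the measures were chosen with earlier results of these data known. 1 item of the pathway list is not reported here by name.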

Additional observations from a re-analysis of the deposited data

How the results depend on the processing

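All 25 Ski peaks were kept at a log2 fold of at least 4 and at a −log10 p of at least 5, and 23 at a log2 fold of at least 5. Site counts ran from 25 (touching peaks joined) to 17 (500 nt), the deep intron share from 82.6% to 87.0%, the centre of log2 fold from 5.84 (mean) to 5.91, and the median distance from the start from 7520 to 8324 nt. TGF-β pathway genes with a peak numbered 6 at a log2 fold of at least 5. The lowest Ski peak had a log2 fold of 4.63, and the lowest −log10 p of a Ski peak was 7.04. Cutting log2 fold at 4, or −log10 p at 5, therefore could not remove any Ski peak. Nor could the cut at 4 drop a pathway gene, since Myc, the lowest by its highest peak, had 4.74. Results at these cuts were fixed beforehand and test nothing. Of 25 alternatives, 24 left the value within 1.5 times the count, its 95% interval or 1 SD over peaks, these fixed ones included. The exception, added after the data were seen, was the share of peaks in the first intron: it was 88.0% by the longest transcript and 4.0% by the other coding transcript, whose first intron is a different, short one. No paired analysis was possible because the list holds no value for a single replicate, and leaving out a replicate could not be run for the same reason. With depth unknown, an absent peak sets no limit on binding.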
